A study of Mus musculus with 2 samples.

Results

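Wide H4K12la peaks are the peak calls of at least 1000 bp on chromosomes 1 to 19 and X, selected on width alone from the peak lists of 2 Neuro2a libraries. They numbered 1090 of 86288 peaks in all. The lactate library held 802 of its 39727 peaks in this class, and the control library held 288 of its 46561. Neuro2a is a mouse neuroblastoma line, and H4K12la is histone H4 lactylated at lysine 12. One library came from cells given 25 mM lactate and 1 from cells given NaCl, on the same culture medium and with the same antibody. The study asks whether H4K12la regulates transcription. Each group has 1 library, so no test between groups was run, no difference below has a replicate check, and every interval is a 95% interval for counting error only.

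Histone lactylation is an acyl mark on lysines whose donor derives from lactate. CUT&Tag sends a transposase to antibody-bound chromatin, so that DNA beside the mark is cut and sequenced. Acyl marks on histone tails are generally found around the starts of transcribed genes, where they flank a region kept free of nucleosomes. A peak can therefore be wide where a mark extends over several neighbouring nucleosomes, and its called width also depends on how far the signal stays above the caller's threshold.

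The promoters of 8 genes are examples of the sequence found under wide peaks at gene starts. Each runs from 250 bases before to 50 after the listed 5′ end, on the gene's own strand, from RefSeq on GRCm38.p6, the assembly that mm10 names. CpG dinucleotides are in capitals. Top2b and Nbea had a wide peak in the lactate and a narrower one in the control library, and Ppm1b had a wide lactate peak and no control peak. Hnrnpk, Ezh2 and Ube3a had wide peaks in both libraries over promoters rich in CpG. Syt1 and Cast had wide peaks in both libraries over promoters with few CpG. These 8 were picked after the values were seen.
Top2b chr14:16364956-16365255 (+ strand): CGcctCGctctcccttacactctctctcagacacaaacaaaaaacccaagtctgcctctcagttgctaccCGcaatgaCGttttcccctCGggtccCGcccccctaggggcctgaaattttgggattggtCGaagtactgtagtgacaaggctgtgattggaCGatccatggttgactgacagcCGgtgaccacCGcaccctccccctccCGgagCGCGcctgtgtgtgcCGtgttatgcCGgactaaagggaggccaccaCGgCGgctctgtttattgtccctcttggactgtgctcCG
Nbea chr3:56183652-56183951 (- strand): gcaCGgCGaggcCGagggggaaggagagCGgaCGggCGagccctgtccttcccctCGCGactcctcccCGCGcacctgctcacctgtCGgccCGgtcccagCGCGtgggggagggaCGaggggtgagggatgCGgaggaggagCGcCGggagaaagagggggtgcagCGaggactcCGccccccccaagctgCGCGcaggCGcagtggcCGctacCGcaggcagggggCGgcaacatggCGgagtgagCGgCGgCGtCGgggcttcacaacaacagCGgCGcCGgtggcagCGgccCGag
Ppm1b chr17:84957751-84958050 (+ strand): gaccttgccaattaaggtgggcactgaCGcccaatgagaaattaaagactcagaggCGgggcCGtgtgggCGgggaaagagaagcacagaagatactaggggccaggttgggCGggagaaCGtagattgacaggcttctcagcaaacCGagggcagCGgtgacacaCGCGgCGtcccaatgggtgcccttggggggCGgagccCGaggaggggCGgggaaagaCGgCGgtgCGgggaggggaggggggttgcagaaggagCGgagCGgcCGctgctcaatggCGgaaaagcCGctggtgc
Hnrnpk chr13:58402068-58402367 (- strand): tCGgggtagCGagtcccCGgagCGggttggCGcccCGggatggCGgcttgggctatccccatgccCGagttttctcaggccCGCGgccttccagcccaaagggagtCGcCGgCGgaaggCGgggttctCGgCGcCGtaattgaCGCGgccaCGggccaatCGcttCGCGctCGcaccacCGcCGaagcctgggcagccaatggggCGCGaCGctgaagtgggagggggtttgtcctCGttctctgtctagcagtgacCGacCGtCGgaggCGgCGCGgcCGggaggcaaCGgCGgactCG
Ezh2 chr6:47594981-47595280 (- strand): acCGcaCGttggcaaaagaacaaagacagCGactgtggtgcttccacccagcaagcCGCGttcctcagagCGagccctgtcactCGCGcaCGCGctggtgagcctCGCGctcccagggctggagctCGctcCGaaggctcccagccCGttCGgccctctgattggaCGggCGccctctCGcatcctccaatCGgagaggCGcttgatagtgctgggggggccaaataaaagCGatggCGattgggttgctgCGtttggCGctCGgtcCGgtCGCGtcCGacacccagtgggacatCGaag
Ube3a chr7:59228500-59228799 (+ strand): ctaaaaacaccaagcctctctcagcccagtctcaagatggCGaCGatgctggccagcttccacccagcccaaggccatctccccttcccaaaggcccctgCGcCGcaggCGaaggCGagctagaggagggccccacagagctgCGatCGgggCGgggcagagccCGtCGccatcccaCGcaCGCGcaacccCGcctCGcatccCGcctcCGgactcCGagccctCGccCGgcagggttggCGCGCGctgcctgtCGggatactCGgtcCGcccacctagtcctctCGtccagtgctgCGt
Syt1 chr10:109010926-109011225 (- strand): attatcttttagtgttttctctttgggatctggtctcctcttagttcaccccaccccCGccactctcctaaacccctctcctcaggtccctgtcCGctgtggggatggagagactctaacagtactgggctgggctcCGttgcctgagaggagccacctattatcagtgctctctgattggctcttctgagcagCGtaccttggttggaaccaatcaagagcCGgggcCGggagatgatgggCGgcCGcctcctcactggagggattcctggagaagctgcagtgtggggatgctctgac
Cast chr13:74808711-74809010 (- strand): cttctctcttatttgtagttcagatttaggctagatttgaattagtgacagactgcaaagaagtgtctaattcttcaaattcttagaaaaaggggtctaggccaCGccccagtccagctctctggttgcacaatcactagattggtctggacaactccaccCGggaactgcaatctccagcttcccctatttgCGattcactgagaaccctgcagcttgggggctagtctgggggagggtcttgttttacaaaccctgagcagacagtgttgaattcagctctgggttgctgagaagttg
The Hnrnpk promoter held 40 CpG in 300 bases and the Nbea promoter 36. The Cast promoter held 3 and the Syt1 promoter 8, so wide peaks lay over both kinds of promoter.

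Wide peaks made up 2.02% of the peaks in the lactate library (1.88% to 2.16%) and 0.619% in the control library (0.549% to 0.694%). They covered 968 kb with lactate and 362 kb in the control, or 7.86% and 3.10% of the bases under all peaks of each list. The median wide peak was 1145 bp long in the lactate and 1157 bp in the control library, and the longest were 4436 and 4414 bp. The lactate excess lay near the lower width limit. Peaks of at least 1500 bp numbered 63 in the lactate and 35 in the control library, and peaks of at least 2000 bp numbered 10 and 9.

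The number of overlapping reads at each summit (the summit pileup) was recovered from the authors' fold enrichment and p-value. Fold enrichment and −log10 q are printed as the authors deposited them and rank peaks within a list. The median summit pileup of wide peaks was 32 reads with lactate and 26 in the control. Narrower peaks had medians of 18 and 15 reads. The genome-wide background was 3.06 reads in the lactate and 2.96 in the control library, and the lowest summit called was 11 reads in each. A −log10 q of at least 5 was reached by 90.8% of lactate wide peaks (88.6% to 92.7%) and 81.9% of control wide peaks (77.0% to 86.2%).

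The width limit cut through a continuous range. The narrowest wide lactate peaks were 1000 bp inside Rbl2, a retinoblastoma family repressor, 1000 bp far from genes on chromosome 13, and 1001 bp at Rcor3, a corepressor gene. Just under the limit lay lactate peaks of 999 bp at Anln, at Afg1l and outside protein-coding genes on chromosome 2. The control list had wide peaks of 1000 bp away from genes on chromosomes 4 and 2 and of 1002 bp at Klhl42. Its peaks of 999 bp lay at Zfp143, inside Ptprg and far from genes on chromosome 13. Widths of 1000 to 1049 bp held 184 lactate and 60 control peaks, and widths of 950 to 999 bp held 206 and 83.

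Wide lactate peaks lay mostly at gene ends, and wide control peaks mostly did not. A peak was placed at a gene end where any base lay within 1 kb of either annotated end of a protein-coding gene. In the lactate library 529 of 802 wide peaks did so, or 66.0% (62.6% to 69.2%), against 83 of 288 or 28.8% (23.7% to 34.4%) in the control library. Among narrower peaks the shares were 25.8% with lactate and 15.2% in the control. Wide peaks within genes yet more than 1 kb from an end numbered 157 (19.6%) with lactate and 80 (27.8%) in the control. Wide peaks farther than 10 kb from any gene numbered 47 (5.86%) with lactate and 66 (22.9%) in the control.

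Most gene-end wide peaks sat at the start of a gene. A listed 5′ end lay within 1 kb of 428 of the 529 lactate gene-end peaks (80.9%) and 62 of the 83 control ones (74.7%). Only a 3′ end was met by 5 lactate and 3 control peaks, and the remaining 96 and 18 were at genes with no listed 5′ end. A further 61 lactate and 8 control wide peaks met a listed 5′ end within a gene, away from its outer ends. That left 212 lactate and 197 control wide peaks at neither, so the libraries were close in number outside gene ends and starts.

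The gene-end share did not keep climbing with width. In the lactate library it was 15.1% for peaks of 100 to 249 bp, 54.9% for 500 to 749 bp and 69.6% for 1000 to 1249 bp, then 38.1% (26.1% to 51.2%) for peaks of at least 1500 bp. In the control library it was 10.8%, 32.8% and 33.9% in the same bins, then 5.71% (0.700% to 19.2%) at the wide end. The peaks of at least 1500 bp were also those most often shared, since 39 of the 63 lactate ones and 29 of the 35 control ones met a wide peak in the other library. Their median local background was 9 reads in the lactate and 10.2 in the control library, against 6.46 and 4.48 reads for peaks of 1000 to 1249 bp. The part of that background in their width was not tested.

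**Figure D1:**
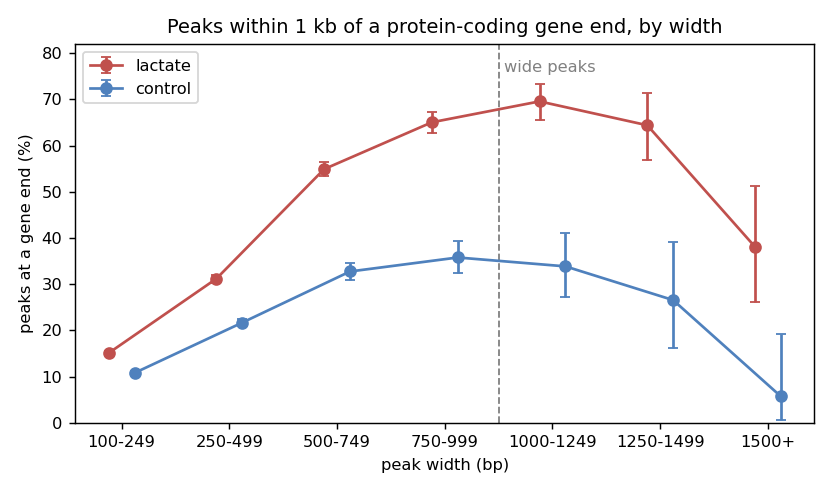
Percentage of peaks within 1 kb of a protein-coding gene end (vertical axis) in 7 bins of peak width in bp (horizontal axis), for the lactate (red) and control (blue) libraries, with exact 95% intervals for counting error as bars; the dashed line marks 1000 bp. The lactate share reaches 69.6% at 1000 to 1249 bp and is 38.1% at 1500 bp and above, and the control share is 33.9% and 5.71% in the same bins.

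Wide peaks extended farther into the gene than upstream of it. A listed 5′ end lay inside 477 lactate and 66 control wide peaks. Upstream of that end the lactate peaks reached a median of 433 bp and the control peaks 460 bp, whereas downstream they reached 727 and 700 bp. The downstream side was the longer one in 335 of the 477 lactate peaks (70.2%, 65.9% to 74.3%) and 46 of the 66 control peaks (69.7%, 57.1% to 80.4%). Among narrower peaks over a 5′ end it was the longer side in 57.2% with lactate and 55.1% in the control. Summits fell on both sides of the 5′ end. Their signed median was 35 bp downstream with lactate (quartiles −120 and 166 bp) and 50 bp downstream in the control (−167 and 307 bp). For narrower peaks the quartiles were closer together, at −78 and 94 bp with lactate and −68 and 83 bp in the control. A pair of genes that start in opposite directions shared 58 lactate wide peaks (12.2%) and 4 control wide peaks (6.06%).

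**Figure D2:**
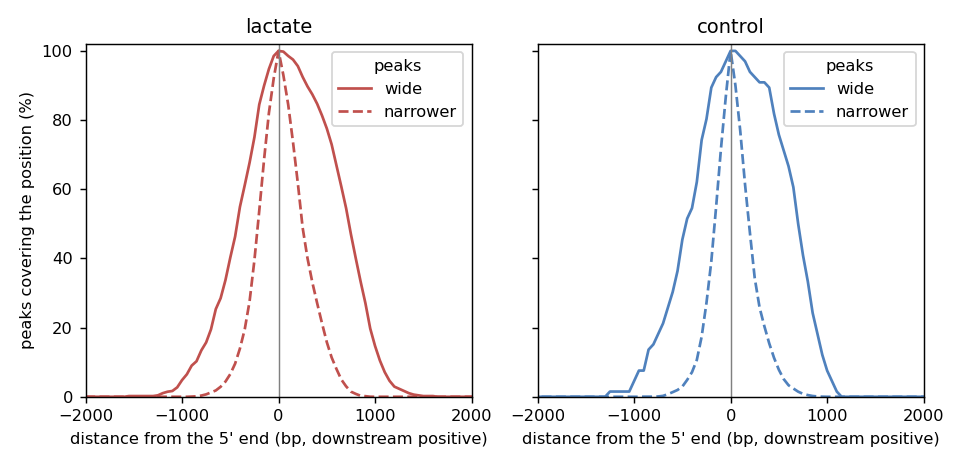
Percentage of peaks covering each position (vertical axis) against distance in bp from the listed 5′ end they contain, downstream positive (horizontal axis), for wide (solid) and narrower (dashed) peaks of the lactate library (left) and the control library (right). Every curve stands at 100% at the 5′ end by construction, and the wide curves are broader on the downstream side, with medians of 727 bp downstream and 433 bp upstream for lactate and 700 and 460 bp for control.

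Most wide peaks met a peak of the other library, and the partner's width differed between the libraries. A partner was taken as an overlap of at least 1 bp. Of the lactate wide peaks 776 (96.8%) had a control partner, which was wide for 154 and narrower for 622. Of the control wide peaks 277 (96.2%) had a lactate partner, which was wide for 154 and narrower for 123. No partner was listed for 26 lactate and 11 control wide peaks. Narrower peaks had a partner in 42.3% of cases with lactate and 37.3% in the control, and the share was already 89.6% and 90.0% for peaks of 750 to 999 bp. When partners were limited to a −log10 q of at least 5, the shares of wide peaks with one were 53.7% with lactate and 77.4% in the control.

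The location of a wide peak went with the width of its partner. At gene ends, 58 of 529 lactate wide peaks met a wide control peak (11%, 8.43% to 13.9%), 449 met a narrower one and 22 met none. Of the 83 gene-end control wide peaks, 57 met a wide lactate peak (68.7%, 57.6% to 78.4%), 26 met a narrower one and none lacked a partner. Away from gene ends, 96 of 273 lactate wide peaks (35.2%) and 97 of 205 control wide peaks (47.3%) met a wide peak in the other library.

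**Figure D3:**
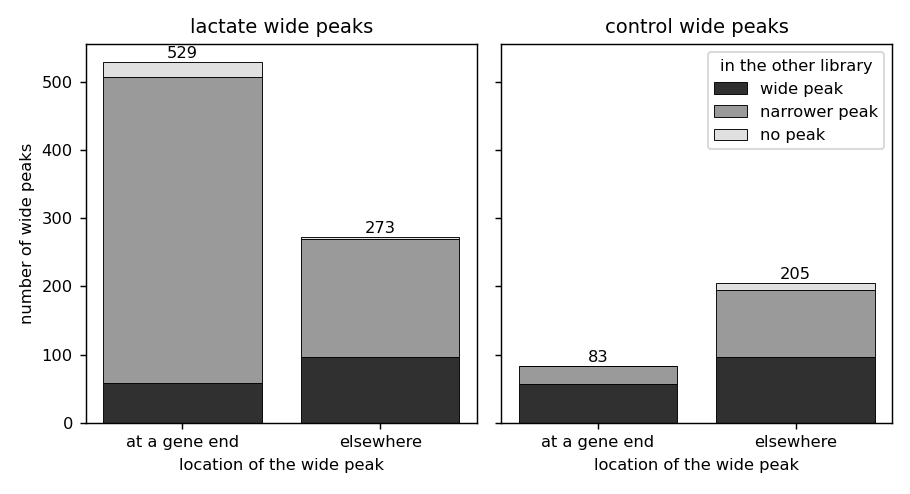
Number of wide peaks (vertical axis) at a protein-coding gene end and elsewhere (horizontal axis) in the lactate library (left) and the control library (right), with shading for whether the other library had a wide peak (dark), a narrower peak (grey) or none (light) at the same place. The bar of 529 lactate peaks at gene ends is mostly grey, with 449 narrower control partners, and the 83 control peaks at gene ends are mostly dark, with 57 wide lactate partners.

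Where a wide lactate peak met only narrower control peaks, the control calls covered a median of 53% of it, and the longest control call was at the median 520 bp. The control signal was 1 call in 395 of these 622 places, 2 calls in 216 and 3 calls in 11. In 111 of the 622 (17.8%) the outer edges of the control calls were at least 1000 bp apart, so the wide lactate peak corresponded to a broken control one. The lactate summit was the higher in 599 of the 622, with a median of 31 reads in the lactate and 19 in the control library. Width in both libraries chose these places, and wider peaks had higher median summits in each list, so this count is a description.

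The 154 pairs of overlapping wide peaks shared a median of 90.3% of their joint length. In 40 of them both edges lay within 50 bp of each other. The lactate peak was the wider in 90 pairs and the control peak in 62. At gene ends the lactate peak was the wider in 42 of 58 pairs and had the higher summit in 50. Elsewhere it was the wider in 48 of 96 pairs and had the higher summit in 54.

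The widest peaks of both libraries lay at the same places, most of them away from protein-coding gene ends. The longest, at chr1:24611678-24616113, measured 4436 bp with a summit of 113 reads in the lactate library and 4414 bp with 131 reads in the control library. It holds the pseudogenes Gm10222 and Gm10925, in a stretch known as a nuclear copy of mitochondrial DNA. The next, over the ribosomal RNA related locus Rn18s-rs5 at chr17:39843084-39846820, measured 3737 bp with 173 reads under lactate and 3442 bp with 139 reads in the control. A peak of 2518 bp in the lactate and 2533 bp in the control library, at chr17:13550663-13553180 by the noncoding gene 2700054A10Rik, had 333 and 372 reads. Reads from such copied sequence can be placed at more than 1 locus, and the sources used here do not say how the authors treated them.

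Most other peaks among the widest lay inside genes, away from their ends. In Stam2, an endosomal sorting gene on chromosome 2, the peak was 2241 bp wide in the lactate and 2480 bp in the control library. In Atg4a, which encodes an autophagy protease on the X chromosome, the widths were 2256 and 2176 bp and the summit was 62 reads in each. Ppa2, a mitochondrial pyrophosphatase gene, had 2080 bp under lactate and 2233 bp in the control, and Trip11, a Golgi scaffold gene, had 2017 and 1976 bp. Actr3b had a lactate peak of 2425 bp beside a control peak of 1711 bp, and Sox5, a transcription factor gene, had a lactate peak of 1897 bp beside a control peak of 2465 bp. Away from genes, the interval at chr13:74528574-74530733 was 2160 bp wide with 106 reads under lactate, and the control peak there had 2380 bp and 157 reads. At chr6:6283605-6285634 the lactate peak was 1704 bp wide with 28 reads and the control peak 2030 bp with 41 reads. Neither library was consistently the wider at these places.

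Wide peaks with the highest fold enrichment were also found in both libraries. Inside Lepr, the leptin receptor gene through which leptin acts on hypothalamic neurons, the lactate library had a peak of 1005 bp at chr4:101769294-101770298 with a fold of 10.3 and 41 reads at the summit. The control library had 992 bp and 44 reads there, just under the width limit. Neither library had a call at the ends of Lepr. Inside Smo, which encodes the Hedgehog signal transducer, the lactate peak was 1166 bp wide with 162 reads and the control peak 1292 bp with 240 reads. At Adgrf2, an adhesion receptor gene, the values were 1189 bp and 75 reads under lactate and 1261 bp and 82 reads in the control. Away from genes, at chr15:75085533-75087093, the lactate peak was 1561 bp wide with 167 reads and the control peak 1558 bp with 150 reads. At chr9:124256324-124257955, outside protein-coding genes yet within 10 kb of some gene, the lactate peak had 1632 bp and 66 reads. The control peak there had 1612 bp and 52 reads. The highest fold of a control wide peak, 11.9, was at Arhgap25, where the lactate peak was 850 bp with 99 reads and the control peak 1026 bp with 104 reads.

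Of the 8 widest lactate peaks at gene starts, 4 met a wide control peak and 4 met only narrower ones. Zmynd11, which encodes a reader of methylated histone H3.3, had a lactate peak of 2124 bp and a summit of 60 reads. The control library had calls of 1305 and 478 bp there, spanning 1956 bp, with up to 44 reads, and only the call of 478 bp was within 1 kb of the outer gene end. Lcorl, a nuclear corepressor gene, had 1912 bp and 23 reads under lactate against 424 bp and 13 reads in the control. The start shared by Cul4a, a ubiquitin ligase scaffold, and Pcid2, an mRNA export factor, had 1748 bp under lactate against 3 control calls, the longest 511 bp. Outside protein-coding genes, at chr12:113275257-113276945, the lactate peak was 1689 bp wide with 41 reads and met control calls of up to 950 bp and 44 reads.

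Neuronal and nuclear genes were among them. Top2b encodes a DNA topoisomerase expressed in post-mitotic neurons. Its peak was 1734 bp wide with 40 reads in the lactate library, against calls up to 386 bp and 16 reads in the control library, over the promoter printed above with its 18 CpG. Nbea, which encodes neurobeachin, a synaptic trafficking scaffold, had 1720 bp and 31 reads under lactate against calls up to 662 bp and 26 reads in the control. Over the start of Hnrnpk, an RNA-binding protein gene, the lactate peak was 1885 bp wide with 33 reads and the control peak 1262 bp with 20 reads. Gpbp1, a GC-rich promoter binding protein gene, had 1794 bp and 54 reads under lactate and 1265 bp and 31 reads in the control. Tmem267 had 1763 bp and 62 reads under lactate and 1461 bp and 53 reads in the control. The last 3 peaks were thus wide in both libraries, and longer and higher in the lactate library.

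All 5 of the widest lactate peaks that met no control peak were at gene ends. They lay at Ppm1b, a protein phosphatase gene (1360 bp, 30 reads), Cdk17, a cyclin-dependent kinase gene (1349 bp, 22 reads), Skil, a repressor of TGF-β signalling (1346 bp, 25 reads), the Gpr135 and L3hypdh pair (1301 bp, 19 reads) and Rnf138, a ubiquitin ligase gene (1275 bp, 24 reads). None of the 5 widest control peaks without a lactate peak was at a protein-coding gene end. These were 1137 to 1400 bp wide with 16 to 23 reads at the summit, and 2 of them lay inside Adamts3, a procollagen processing protease gene, and Cntn5, a neuronal adhesion gene.

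The 5 widest control peaks with a narrower lactate partner also lay away from protein-coding gene ends. One was inside Fbxo25, a ubiquitin ligase subunit gene, with a lactate call of 530 bp and 32 reads against a control peak of 1647 bp and 42 reads. The other 4, outside protein-coding genes on chromosomes 6, 4, X and 3, were 1652 to 1801 bp wide, over lactate calls whose longest pieces measured 292 to 980 bp.

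Control wide peaks at gene ends mostly met a wide lactate peak with a higher summit. Of the 57 that met one, the lactate summit was the higher in 49, the lower in 6 and equal in 2. Among the widest at gene starts, Gm7609 had the higher summit in the control, with 51 reads against 45. The gene 4931408C20Rik had 28 reads in each library. Tab2, an adaptor of inflammatory kinase signalling, had 1405 bp and 39 reads under lactate and 1504 bp and 23 reads in the control. Ube3a, the ubiquitin ligase gene whose maternal copy is active in neurons, had 1607 bp and 46 reads under lactate and 1372 bp and 29 reads in the control. Kcnmb4, a neuronal subunit of calcium-activated potassium channels, was wider in the control, with 1003 bp and 26 reads under lactate and 1336 bp and 16 reads in the control. Casd1, a sialic acid acetyltransferase gene, had 1491 bp and 42 reads under lactate and 1419 bp and 32 reads in the control.

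Counted by gene, 607 of 21627 protein-coding genes (2.81%) had a wide peak at an end in the lactate and 90 (0.416%) in the control library. Any gene-end peak, of whatever width, was listed for 9799 genes (45.3%) with lactate and 6993 (32.3%) in the control. A wide one was present at 6.19% of those genes with lactate and 1.29% in the control. Both libraries had a wide peak at 62 genes, the lactate library alone at 545 and the control library alone at 28. Of the 545 genes, 511 had a narrower control peak and 34 had none. Of the 28 genes, 27 had a narrower lactate peak, and Ammecr1l had no lactate call within 1 kb of its ends, its control peak of 1102 bp meeting a lactate peak of 617 bp outside that window. Since gene-end width chose these genes, the counts are a description.

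The lactate summit was mostly the higher in both classes of gene. Among the 511 genes with a wide lactate and a narrower control peak, the lactate summit was the higher at 506, with medians of 32 reads under lactate and 19 in the control. Those 511 genes were chosen by width, which went with summit height in each list, so that count is a description. Among the 27 genes with a wide control and a narrower lactate peak, the lactate summit was still the higher at 20, with medians of 33 and 21 reads. Rnf2, a subunit of Polycomb repressive complex 1, is an example, with 864 bp and 33 reads under lactate and 1034 bp and 18 reads in the control. Wnk3, a kinase gene that regulates ion transport, had 500 bp and 26 reads under lactate and 1166 bp and 16 reads in the control. Trim44 had 941 bp and 33 reads under lactate and 1332 bp and 17 reads in the control. At these 3 genes the wide control call had a lower summit than the narrower lactate call.

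**Figure D4:**
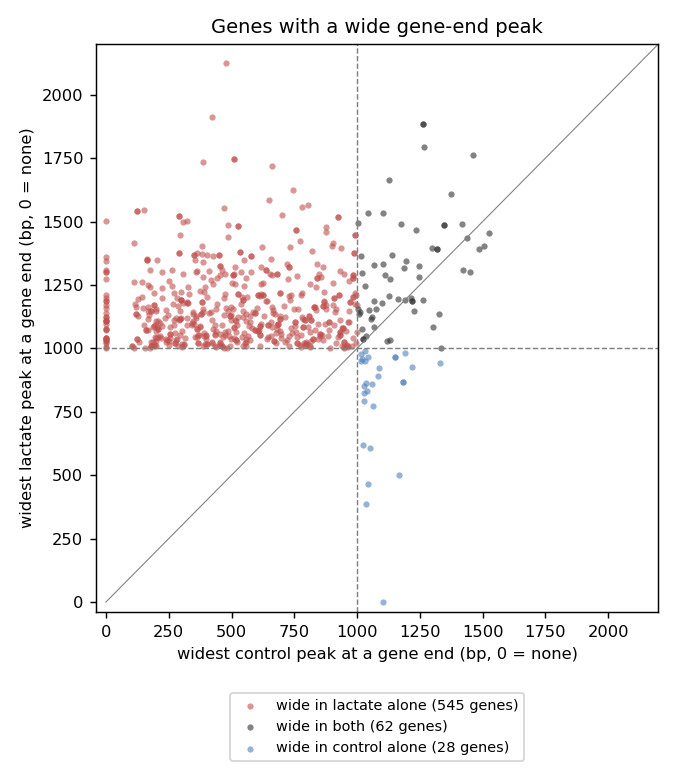
Widest lactate peak (vertical axis) against widest control peak (horizontal axis) within 1 kb of an end of each protein-coding gene with a wide peak in either library, in bp, with 0 for no call; dashed lines mark 1000 bp and the thin line equal width. The 545 genes wide in lactate alone (red) spread from 0 to 999 bp on the control axis, and the 28 genes wide in control alone (blue) mostly lie above 750 bp on the lactate axis.

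Genes with a wide gene-end peak were longer at the median than other genes. Their length was 39.5 kb in the lactate and 58.9 kb in the control library. Genes with only narrower gene-end peaks had medians of 21.8 and 24.1 kb, and genes with none 12.5 and 14.3 kb. A wide peak met the ends of 2 genes at once in 81 lactate and 7 control places.

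The promoters under wide peaks were mostly rich in CpG, as were those under narrower ones. A listed promoter was found for 17273 of the 21627 genes. The median GC content of 509 promoters with a wide lactate peak at the gene was 65.7%, and that of 64 promoters with a wide control peak was 67.7%. Promoters of genes with only narrower peaks had medians of 62.0% with lactate and 62.3% in the control, and all promoters 56.3%. A CpG content of at least 0.6 of that expected from base composition was found in 447 of the 509 promoters under wide lactate peaks (87.8%) and 48 of the 64 under wide control peaks (75%). With only narrower peaks the share was 81.7% in each library, and over all promoters it was 49.0%. The intervals were 84.7% to 90.5% for lactate and 62.6% to 85.0% for the control, and the Syt1 and Cast promoters printed above fall under that CpG limit.

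Short motifs were searched for as exact letters on both strands of these 300 bases. GGGCGG, the core of the SP1 family site, was in 75.6% of promoters with a wide lactate peak and 75% of those with a wide control peak. It was in 70.5% and 70.0% of those with only narrower lactate or control peaks, and in 46.9% of all promoters. TATAAA was in 4.72% with lactate and in 1 of 64 (1.56%, 0.0396% to 8.40%) in the control. It was in 5.43% and 4.73% with only narrower peaks, and in 13.4% of all promoters. TCTCGCGAG, a palindrome bound by ZBTB33, was in 22 of 509 promoters with a wide lactate peak (4.32%, 2.73% to 6.47%), 1 of 64 with a wide control peak, 2.17% of those with only narrower lactate peaks and 1.04% of all. CCGGAAG, the core of ETS family sites, was in 17.1% of promoters under wide lactate peaks (13.9% to 20.6%) and in 22.6% under narrower ones. In the control it was in 10 of 64 under wide peaks (15.6%, 7.76% to 26.9%), an interval that holds the 23.1% under narrower ones. The share with CCAAT was 37.7% with lactate, 35.9% in the control and 39.6% over all promoters. A match describes the letters and does not mark a bound site, and some motifs share CG with the measure of CpG content.

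Genes for RNA handling had the highest share of wide lactate peaks among the 16 gene lists. Of 22 translation and RNA processing genes, 5 had a wide lactate peak and 1 a wide control peak, beside 2.81% and 0.416% of all genes. All 22 had some gene-end peak with lactate, where 45.3% of all genes did. Of genes with any such peak 6.19% had a wide one. Hnrnpa2b1, an RNA-binding protein gene, had 1367 bp and 43 reads under lactate against 451 bp and 17 reads in the control. Ncl, which encodes nucleolin, had 1293 bp and 38 reads under lactate against 475 bp and 21 reads. The translation factor Eif4e had 1022 bp under lactate against 422 bp, and the RNA helicase gene Ddx3x had 1015 bp against 309 bp in the control. Over the wider family of 53 Hnrnp, Srsf, Sf3 and Snrp symbols, 7 had a wide lactate peak (13.2%) and 1, Hnrnpk, a wide control peak. Of the 53, 45 had any gene-end peak with lactate. These lists and families were chosen with results of these data known, and their counts were not tested.

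Genes of lactate metabolism and of histone acylation had a few. In glycolysis and lactate handling, 3 of 27 genes had a wide lactate peak and none a wide control peak. Of all genes, 2.81% had one with lactate and 0.416% in the control, so few control ones would be met in a list of this size. Slc16a1, which encodes the monocarboxylate transporter that carries lactate, had 1115 bp and 28 reads under lactate against 168 bp and 14 reads in the control. Mpc2, a subunit of the mitochondrial pyruvate carrier, had 1139 bp and 40 reads under lactate against 593 bp and 19 reads. The glucose transporter gene Slc2a3 had 1004 bp under lactate against 437 bp. Among 19 acyltransferases and deacylases, 3 were wide with lactate and 1 in the control, beside the same shares of all genes. Hdac2, a deacetylase gene, was wide in both, with 1196 bp and 41 reads under lactate and 1161 bp and 25 reads in the control, while the acetyltransferase genes Ep300 (1023 against 789 bp) and Kat6a (1018 against 802 bp) were wide with lactate alone.

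Chromatin regulators gave 2 of 25 genes in each library, beside 2.81% of all genes with lactate and 0.416% in the control. Ezh2, the methyltransferase of Polycomb repressive complex 2, had 1363 bp and 33 reads under lactate and 1016 bp and 16 reads in the control. Ctcf, an insulator protein gene, had 1181 bp and 35 reads under lactate against 324 bp and 18 reads. Single genes with a wide lactate peak came from the TCA cycle list (Ogdh, 1219 against 193 bp), the hypoxia list (Kdm3a, 1008 against 435 bp) and the cell cycle list (Mcm4, 1077 against 363 bp). Of the p53 and growth list, Gadd45a had 1213 bp against 474 bp and Max 1007 bp against 812 bp. No gene of these 4 lists had a wide control peak, where 0.416% of all genes did, so few would be met in lists of this size.

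The POMC and energy balance genes that the study's title is about had 1 wide lactate peak at a gene end and none in the control, a share near the 2.81% and 0.416% of all genes. Of 12 genes for POMC processing and secretory granules, Prcp, whose product inactivates the hormone α-MSH, had 1111 bp and 41 reads under lactate and 818 bp and 23 reads in the control. At Pomc itself the lactate library had a peak of 617 bp with 26 reads and the control library listed none. The prohormone convertase gene Pcsk1 had 767 bp and Pcsk2 313 bp under lactate, Pcsk1n, which encodes a convertase inhibitor, had 468 bp, and Scg2, a granin gene, had 154 bp, all with no control call. The carboxypeptidase gene Cpe had 645 bp under lactate against 200 bp, the amidating enzyme gene Pam 471 against 195 bp, and the granule chaperone gene Scg5 374 against 142 bp in the control. Chga, Cartpt and Furin had no gene-end call in either library. Any gene-end call was listed for 9 of the 12 genes with lactate and 4 in the control, beside 45.3% and 32.3% of all genes. The difference from all genes was not tested.

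None of 22 appetite and energy balance genes had a wide gene-end peak, where 2.81% of all genes did with lactate and 0.416% in the control. A gene-end call of any width was listed for 7 of them with lactate and 5 in the control, beside 45.3% and 32.3% of all genes. Inside Bdnf, which encodes a neurotrophin, both libraries had a wide peak away from the gene's ends, at chr2:109677202-109678464 with 1263 bp and 31 reads under lactate and 1015 bp and 19 reads in the control. The wide lactate peak inside Lepr is given above. The widest gene-end peak was at Agrp, which encodes the melanocortin antagonist, with 985 bp and 31 reads under lactate against 433 bp and 17 reads in the control. The demethylase gene Fto had 830 against 531 bp, the insulin receptor gene Insr 787 against 613 bp and Stat3, which relays leptin signals, 600 against 449 bp. Fam172a had 200 bp and 16 reads under lactate and no control call. Igf1r (162 bp) and Sim1 (107 bp) were also listed with lactate alone, and Socs3 (111 bp) in the control alone. The other 14 had no gene-end call in either library, namely the receptor genes Lepr, Mc4r, Mc3r, Glp1r, Ghsr, Htr2c and Ntrk2, the peptide and growth factor genes Npy, Adcyap1 and Bdnf, the transcription factor genes Foxo1, Nr3c1 and Nhlh2, and the phosphatase gene Ptpn1.

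Among 24 genes of neuronal and neuroblastoma identity, Syt1, the calcium sensor of synaptic vesicle release, had a wide gene-end peak in both libraries. No other member did in either. That share of 4.17% in each library rests on 1 gene, beside 2.81% of all genes with lactate and 0.416% in the control. The Syt1 peak had 1283 bp and 39 reads under lactate and 1248 bp and 23 reads in the control. Of this list 10 genes had any gene-end call with lactate and 6 in the control, beside 45.3% and 32.3% of all genes. Of 25 markers of other cell types, 3 had a narrow call with lactate, the widest 333 bp, and 0 in the control. These counts were not tested and do not show cell identity.

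Among families defined by gene symbol, Rab genes and chaperones had larger lactate shares than all genes, and cytosolic ribosomal protein and histone genes had none. Only a gene with a gene-end peak could have a wide one, and 6.19% of such genes did with lactate. Of 69 Rab GTPase genes 49 had any gene-end lactate peak and 6 a wide one. Among them, Rab28 had 1445 bp under lactate against 296 bp in the control. Of 80 chaperone genes 59 had any and 5 a wide one, among them Dnajc11 with 1219 against 780 bp. Of 78 mitochondrial ribosomal protein genes 69 had any and 2 a wide one, Mrpl47 and Mrpl48. Of 375 solute carriers 167 had any and 13 (3.47%) a wide one, and of 397 Zfp genes 288 and 15 (3.78%). In the control, 0 solute carriers and 4 Zfp genes had a wide one. None of 83 cytosolic ribosomal protein genes was wide with lactate, although 68 had a gene-end peak, and Rpl7 was wide in the control with 965 bp under lactate against 1150 bp. None of 68 histone genes, 40 proteasome genes, 13 immediate early genes or 20 housekeeping genes was wide in either library, beside 2.81% of all genes with lactate and 0.416% in the control, so few would be met in lists of this size. Of 1110 olfactory receptor genes, 0 were wide with lactate and 1, Olfr796, in the control.

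Wide gene-end peaks were unevenly spread over chromosomes. Of the genes with any gene-end peak on chromosome 13, 13.4% had a wide one in the lactate and 3.72% in the control library. The lactate shares on chromosomes 3, 1, 6 and 16 were 12.2%, 10.6%, 9.85% and 9.0%, with control shares of 1.73%, 3.11%, 2.66% and 1.22%. Every other chromosome had a lactate share between 3.91% and 5.92%. The median gene-end summit in the lactate library was 23 to 25 reads on chromosomes 13, 3, 1, 6 and 16. On the others it ran from 17 on X to 26 on chromosome 15, where 5.29% of genes with any gene-end peak had a wide one. Every chromosome with a median under 23 reads was among those others. So were chromosomes 2, 8, 10 and 11, with medians of 23, 25, 25 and 23 reads. Their lactate shares were 4.77%, 5.63%, 5.92% and 4.15%. The part of summit height in this spread was not tested.

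**Figure D5:**
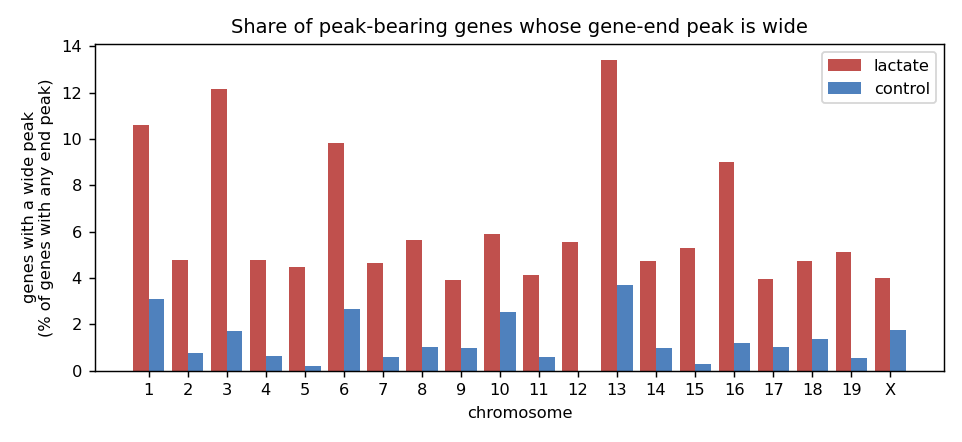
Genes with a wide gene-end peak as a percentage of genes with any gene-end peak (vertical axis, bars from 0) on each chromosome (horizontal axis) in the lactate (red, left bar) and control (blue, right bar) libraries, 1 library each. Chromosomes 13, 3, 1, 6 and 16 stand at 9.0% to 13.4% in the lactate library and the others at 3.91% to 5.92%.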

How the data were processed

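H4K12la CUT&Tag was done in Neuro2a cells, 1 library with lactate and 1 with NaCl, sequenced in pairs of 150 bases, per the labels' protocols. BWA, deepTools and MACS2 were used on mm10, per the submitters' processing notes. No tool version or calling setting is recorded (not given in the sources used here). One peak list per library was deposited by the authors. For every peak the authors deposited a fold enrichment, which is a ratio of the summit's pileup to its local background. Per the file values, the deposited −log10 p-value and −log10 q-value describe the summit, and the deposited score is a multiple of that −log10 q. Depth per library is unknown from the lists and was judged from the genome-wide background recovered from the peaks, at 3.06 reads in the lactate and 2.96 in the control library.

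Wide peaks, selected on width, were peaks on chromosomes 1 to 19 and X with end minus start of at least 1000 bp. The mitochondrial genome and chromosome Y were left out. The whole-number summit pileup and local background that give both the deposited fold and p were found within 0.001 of the −log10 p for all 39727 lactate peaks and 46560 of 46561 control peaks. Genes and promoters came from RefSeq tables on GRCm38.p6 (mm10). The gene table has no strand, so a gene end is either annotated end, and 5′ ends come from the promoter table, which lists none for some genes. No genome sequence was used here. Shares have exact (Clopper-Pearson) 95% intervals.

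The members, gene lists and symbol families were chosen with earlier results of these data known. The text names the 10 widest peaks of each library, the widest pairs, the widest with no or a narrower partner, the highest folds, those nearest the limit, up to 4 wide members of each list, and every POMC and energy balance gene. The widest peaks at 5′ ends, the family members, the genes wide in the control alone and the promoters printed were chosen after their values were seen. Alternatives were other widths, q limits, merging within 200 bp, windows, overlap rules, equal list lengths and equal numbers of wide peaks. Scripts were tested on simulated data. The software was scipy 1.17.1, pandas 2.3.3 and numpy 2.4.6 under Python 3.11.15.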

Additional observations from a re-analysis of the deposited data

How the results depend on the processing

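Under the 7 alternatives run for each of these results, the lactate library had more wide peaks, a higher gene-end share and more genes with a wide peak in it alone. Of 77 alternative values, 34 moved little and 43 moved, and for those the cause was not tested beyond the setting's own construction. No paired analysis was possible because each group has 1 library, and none could be left out. At a minimum of 750 bp there were 2513 lactate and 1037 control wide peaks, 91.9% and 91.7% met a peak of the other library, and genes numbered 1924 for lactate, 407 for control, 337 for both, 1587 for lactate alone and 70 for control alone. At 1500 bp there were 63 and 35 wide peaks, 38.1% and 5.71% at a gene end, 100% of each met a peak of the other library, and genes numbered 29 for lactate, 2 for control, 0 for both, 29 for lactate alone and 2 for control alone. At −log10 q of at least 10 there were 263 and 84 wide peaks, the control gene-end share was 17.9%, and genes numbered 203, 16, 12, 191 and 4 in the same order. The lactate gene-end share was 71.3% with a 3 kb window, 61.2% by summit and 61.0% by 5′ ends. Requiring cover of at least 50% of the wide peak left 62.2% of lactate and 83.3% of control wide peaks with a partner, and partners of −log10 q of at least 5 left 53.7% and 77.4%. Partners of at least 750 bp were met by 39.9% and 70.5%. With equal numbers of wide peaks 32.3% of either met a wide partner, and genes numbered 198 for lactate, 35 for both, 163 for lactate alone and 55 for control alone. With 1 library per group, biological and library differences cannot be told apart, and a region without a call may hold signal below the threshold, since the lowest summit called was 11 reads.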

Other observations

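Besides the protein-coding genes, wide peaks met the ends of noncoding genes. In the lactate library these were 124 lncRNA, 6 snoRNA and 5 miRNA genes, and in the control library 23 lncRNA, 13 snoRNA and 2 miRNA genes. Pseudogenes with a wide peak at an end numbered 16 with lactate and 14 in the control. Of genes lying wholly inside a wide peak, 5 in each library were pseudogenes. The totals of these classes over the genome were not counted, so no share stands beside the numbers. They come from 802 lactate and 288 control wide peaks, and no difference between classes was tested.

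Outside the chromosomes counted, the mitochondrial genome carried 2 wide peaks in each library among 6 peaks in each, and chromosome Y carried 1 wide peak with lactate and 0 in the control, among 41 and 31 peaks.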
